A study of Mus musculus with 12 samples.

Results

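The genes of glycinergic transmission were followed in whole spinal cord from 12 mice aged 8 weeks on a B6J;FVB background: 6 wild-type (WT) mice and 6 mice heterozygous for GarsdelETAQ (genotype ETAQ+/- in the labels). Glycyl-tRNA synthetase, the product of Gars, loads glycine onto its tRNA, and the allele is named for the residues it deletes. Each genotype had 3 females and 3 males, and each library came from 1 separately numbered mouse. The 9 genes were chosen by name, with no use of their values, though with earlier results of these data known. Glra1, Glra2, Glra3 and Glra4 encode the alpha subunits of the glycine receptor, Glrb its beta subunit and Gphn gephyrin. Slc6a5 and Slc6a9 encode the plasma membrane glycine transporters GlyT2 and GlyT1, and Slc32a1 the vesicular inhibitory amino acid transporter. All 9 were among the 38924 genes in the tables, and all 9 were among the 17189 genes with enough reads to be tested.

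At a glycinergic synapse, Slc32a1 packs glycine, GABA or both into vesicles, and Slc6a5 on the terminal takes released glycine back up to refill them. Slc6a9, carried mainly by astrocytes, clears glycine from the cleft and its surroundings. The receptor is a chloride channel built of alpha and beta subunits, and the beta subunit binds gephyrin, the scaffold that holds the channel under the terminal. In rodent cord the receptor changes around birth from one rich in Glra2 to one rich in Glra1, and Glra3 is best known from the superficial dorsal horn.

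The 12 libraries held 23595929 to 41452662 expected counts (estimated reads per gene, summed over all genes). The libraries of mice 1 to 6 stood apart from those of mice 7 to 12. The summed level of 5 red cell markers was 1890 to 3511 CPM (counts scaled to library size) in mice 1 to 6 and 143 to 268 in mice 7 to 12. The 7 skeletal muscle markers summed to 47.8 to 769 CPM against 0.848 to 1.58, and the 6 marrow markers to 80.4 to 149 CPM against 0.286 to 3.10. Each set held 3 WT and 3 ETAQ+/- mice. Mice 1 to 6 were 5 males and 1 female and mice 7 to 12 were 5 females and 1 male, so set and sex can barely be told apart. The genotype effect is also given within each set. The 1 female of mice 1 to 6 (mouse 1) and the 1 male of mice 7 to 12 (mouse 11) were both ETAQ+/-. The 3 WT mice of each set were thus of 1 sex, and the effects within sets are not free of sex. None of these marker genes passed the genotype test. As for the labelled tissue, all 8 pan-neuronal, 9 astrocyte, 6 oligodendrocyte and 5 microglial markers listed had enough reads to be tested.

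Of 12 listed targets of the stress-response factor ATF4, 9 were called higher in the ETAQ+/- cords (values below). The stretch around the start of each glycinergic gene was searched for the letters TGATGNAA on either strand, the core of the element bound by ATF4 with a partner. The windows, from 250 bases before to 50 after the start, came from RefSeq on GRCm38.p6 and matched 8 of the 9 genes in 11 windows; Glra1 was not among them. None of the 11 windows held the letters, against 5 of 14 windows (35.7%) for 11 of 12 ATF4 target genes and 3.97% of all 32851 windows. With 3.97% over all windows, 0 of 11 stands near the background and is no result about the 9 genes. These are matches of letters only. The upstream stretches of 250 bases shown here hold no annotated exon of their own gene: those of Glrb (chr3:80913661-80913910, minus strand) and Slc32a1 (chr2:158610508-158610757, plus strand), for the receptor and the vesicle, and that of Fgf21 (chr7:45615491-45615740, minus strand), a stress-induced hormone gene, for contrast. Each runs 5′ to 3′ toward the gene's start, and capitals mark the searched letters, which in Fgf21 lie on the opposite strand to the gene and begin at position -139 from the start.
Glrb: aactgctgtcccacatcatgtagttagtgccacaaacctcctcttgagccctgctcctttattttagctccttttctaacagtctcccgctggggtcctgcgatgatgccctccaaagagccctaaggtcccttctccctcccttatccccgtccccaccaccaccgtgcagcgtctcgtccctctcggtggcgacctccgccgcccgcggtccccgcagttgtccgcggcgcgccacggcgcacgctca
Slc32a1: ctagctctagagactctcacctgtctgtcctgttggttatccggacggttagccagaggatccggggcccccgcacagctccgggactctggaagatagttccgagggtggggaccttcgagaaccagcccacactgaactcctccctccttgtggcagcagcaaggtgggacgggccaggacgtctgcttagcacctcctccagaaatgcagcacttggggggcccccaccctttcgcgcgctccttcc
Fgf21: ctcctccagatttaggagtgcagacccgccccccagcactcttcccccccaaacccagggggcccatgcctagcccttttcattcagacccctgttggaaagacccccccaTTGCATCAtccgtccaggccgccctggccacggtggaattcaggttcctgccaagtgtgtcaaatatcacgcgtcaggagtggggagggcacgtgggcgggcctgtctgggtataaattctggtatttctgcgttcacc

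Levels were compared between genes on the deposited TPM, which is scaled by transcript length and library size. Over the 12 mice, Slc6a9 was highest at 239 ± 9.55 TPM (mean ± SD, n = 12, range 221 to 248), rank 469 among all genes. Glrb followed at 213 ± 16.9 TPM; its range overlapped that of Slc6a9, which was above it in 10 of 12 mice. Slc6a5 stood at 139.9 ± 11.6 TPM, below Glrb and above Slc32a1 in every mouse. Slc32a1 (103 ± 8.52 TPM) and Glra1 (87.3 ± 13.3 TPM) had overlapping ranges, with Slc32a1 above Glra1 in 11 of 12 mice. Gphn followed at 37.8 ± 2.26 TPM. The other alpha subunits were far lower: Glra3 at 8.36 ± 1.59 TPM, Glra2 at 7.56 ± 1.11 TPM and Glra4 at 0.793 ± 0.168 TPM, rank 15987. The ranges of Glra3 and Glra2 overlapped, with Glra3 above in 10 of 12 mice. This order rests on the deposited mean transcript lengths, 1905 to 1950 bases for Glra3 and 3150 for Glra2. GENCODE M21 has 9208 exon bases for Glra3. In CPM, which is not scaled by length, Glra2 was above Glra3, at 11.3 to 15.5 against 5.92 to 9.99. The shares of the alpha genes given below rest on the same lengths. Glra4 rested on few reads, 14 to 27 expected counts per library.

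**Figure D1:**
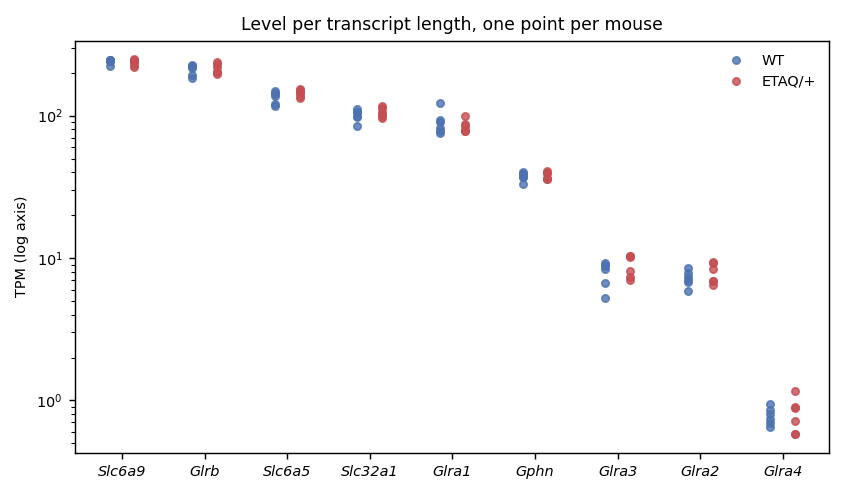
Deposited TPM (log axis) of the 9 glycinergic genes, 1 point per mouse, WT in blue and ETAQ+/- in red, ordered by the mean over 12 mice. Slc6a9 and Glrb lie highest at 239 and 213 TPM on average, and Glra4 lies lowest at 0.793 TPM.

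Glra1 thus made up most of the alpha-subunit messenger RNA. Its share of the summed TPM of the 4 alpha genes was 82.7% to 88.4% in WT cords (median 84.2%) and 79.2% to 86.5% in ETAQ+/- cords (median 83.0%). The share of Glra2 had medians of 7.30% and 7.65%, that of Glra3 7.59% and 8.52%, and that of Glra4 0.767% and 0.810%. The TPM of Glrb was a median 2.07 times the sum of the alpha genes in WT and 2.13 times in ETAQ+/- cords, and the TPM of Gphn was 0.178 and 0.179 times that of Glrb. On the transporter side, Slc6a9 exceeded Slc6a5 by median ratios of 1.75 (1.64 to 2.05) in WT and 1.63 (1.57 to 1.77) in ETAQ+/- cords, and Slc6a5 exceeded Slc32a1 by 1.35 and 1.38. The genotypes overlapped in each of these 8 ratios, which are given without a test.

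The 9 genes lie on 8 chromosomes in GRCm38 (GENCODE M21), all annotated as protein-coding. Glra1 is at chromosome 11:55514238-55608198, Glrb at 3:80843599-80913660 and Gphn at 12:78226379-78684772. Glra2 (X:165129017-165327393) and Glra4 (X:136757674-136780141) are both X-linked, and Glra3 is at 8:55940460-56130070. Slc6a5 is at 7:49910146-49963856, Slc6a9 at 4:117834506-117875198 and Slc32a1 at 2:158610767-158615748. Of the exon bases of Slc6a9, 30.2% also lie in exons of genes on the opposite strand (B4galt2, Ccdc24 and Gm17114), and of those of Slc32a1 24.9% (Gm14205). The expected counts of these 2 genes were not whole numbers in 83.3% of libraries. Whether the authors counted by strand is not given in the sources used here. If counting was not by strand, reads from the shared bases of these 2 genes and their opposite-strand neighbours could not be told apart. The values of these 2 genes are uncertain to that extent. As counted, B4galt2 had 15.5 to 20.4 CPM, Ccdc24 2.88 to 4.29 and Gm17114 0, against 298 to 358 for Slc6a9. Gm14205 had 0 to 8.85 CPM, against 142 to 169.6 for Slc32a1. B4galt2 had a log2 fold change of -0.06 ± 0.06 between genotypes (adjusted p = 0.813, edgeR) and Gm14205 of -0.52 ± 0.58 (adjusted p = 0.839, edgeR). Glra2, Glra3, Glra4, Glrb and Slc6a5 had no exon base shared with another gene.

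The comparison of ETAQ+/- with WT cords asks which transcripts the heterozygous allele changes in the adult cord. None of the 9 glycinergic genes passed the test (edgeR's quasi-likelihood test with sex as covariate, Benjamini-Hochberg adjustment over 17189 genes, threshold 0.05), and none had an unadjusted p below 0.05. In the same test 1.92% of all genes were called, 100 higher (0.582%) and 230 lower (1.34%) in ETAQ+/- cords. DESeq2 and limma-voom also called 0 of the 9. The median log2 fold change was 0.02 over the 9 genes and 0.0043 over all genes tested. The genotypes overlapped in all 9 genes, and 2.01% of all genes tested had groups that did not overlap. Beside shares of 1.92% called and 2.01% not overlapping, 0 of 9 stands near the background. These 2 counts are no result about the 9 genes. Values below are normalised CPM (scaled by trimmed mean of M-values), and log2 fold changes are ETAQ+/- over WT with their standard errors.

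For the main alpha subunit Glra1, WT cords ranged from 98.2 to 147 CPM (median 105) and ETAQ+/- cords from 90.0 to 119 (median 103). WT mouse 3 was far above the other WT mice, which reached 112 at most, and the groups overlapped. The log2 fold change was -0.13 ± 0.11 (95% confidence interval -0.37 to 0.11, adjusted p = 0.761), an interval of -22.4% to 7.68%. Without WT mouse 3 the log2 fold change was -0.03 (adjusted p = 0.939). Glra2, the subunit of the immature receptor, had 11.3 to 14.7 CPM in WT (median 12.5) and 11.4 to 15.5 in ETAQ+/- cords (median 13.4), with a log2 fold change of 0.08 ± 0.08 (adjusted p = 0.815). Glra3 had 5.92 to 9.23 CPM in WT (mean 7.98 ± 1.29) and 7.36 to 9.99 in ETAQ+/- cords (mean 8.77 ± 1.27), with a log2 fold change of 0.14 ± 0.10 (interval -0.06 to 0.35, adjusted p = 0.672). In both genes the values of mice 7 to 12 lay above those of mice 1 to 6 within each genotype, and the sets are compared below. For Glra4 the means were 0.645 ± 0.104 and 0.661 ± 0.183 CPM (SD, n = 6 each), and at this depth the interval was wide, from -26.6% to 40.9%.

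The synaptic subunit and its anchor had the narrowest intervals among the receptor genes. Glrb ranged from 293 to 335 CPM in WT (mean 316 ± 17.4) and from 289 to 345 in ETAQ+/- cords (mean 319.7 ± 21.8). Its log2 fold change was 0.02 ± 0.05 (adjusted p = 0.941), with an interval of -5.63% to 8.76%. Gphn ranged from 66.2 to 71.9 CPM in WT (mean 69.3 ± 2.50) and from 63.6 to 71.9 in ETAQ+/- cords (mean 68.4 ± 2.80). Its log2 fold change was -0.02 ± 0.03 (adjusted p = 0.907), with an interval of -6.03% to 3.64%.

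Among the transporters, Slc6a5 had 502 to 604 CPM in WT (mean 556 ± 36.7) and 561 to 594 in ETAQ+/- cords (mean 581 ± 12.6). The ETAQ+/- values lay inside the upper part of the WT range, and the log2 fold change was 0.06 ± 0.04 (interval -0.01 to 0.14, adjusted p = 0.562, edgeR). Slc6a9 had 328 to 358 CPM in WT (mean 339 ± 11.5) and 298 to 340 (mean 323 ± 16.2) in ETAQ+/- cords. It had the smallest p of the 9 genes, with a log2 fold change of -0.07 ± 0.03 (interval -9.56% to 0.116%, adjusted p = 0.474, edgeR). Slc32a1 had 142 to 167 CPM in WT (mean 156 ± 8.20) and 152 to 169.6 in ETAQ+/- cords (mean 159 ± 7.06), with a log2 fold change of 0.03 ± 0.04 (adjusted p = 0.859). None of the 3 transporters passed the test, and the ranges of the genotypes overlapped in each.

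**Figure D2:**
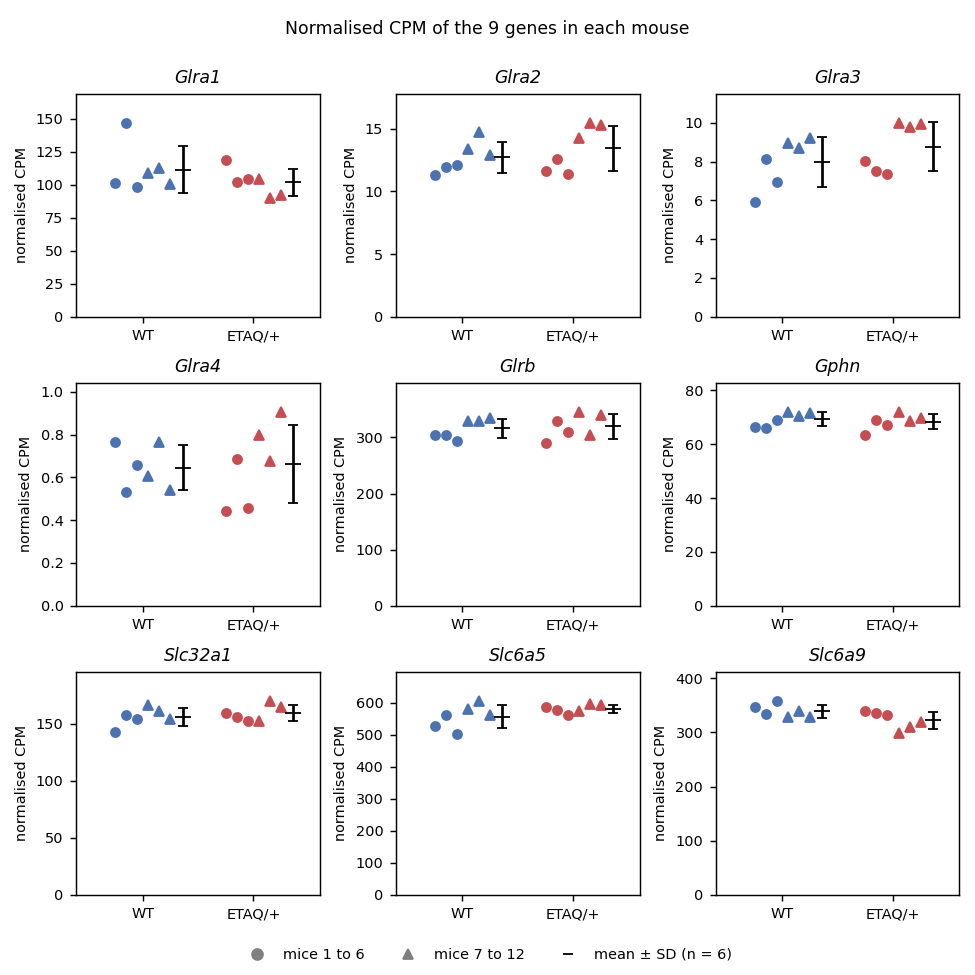
Normalised CPM of each of the 9 genes in each mouse (linear axes from 0), WT in blue and ETAQ+/- in red, circles for mice 1 to 6 and triangles for mice 7 to 12, with mean ± SD over 6 mice per genotype. The genotypes overlap in all 9 panels, while in Glra2 and Glra3 the triangles lie above the circles.

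The genotype effect was then estimated within each set in 1 fit of all 12 libraries, without a sex term. No glycinergic gene was called in mice 1 to 6, where 1.07% of all genes were, or in mice 7 to 12, where 1.12% were. Each set had 1 of the 9 genes with an unadjusted p below 0.05, where 1832 and 1661 of the 17189 genes tested had one, so these counts stand near the background and are no result about the 9 genes. In mice 1 to 6 the gene was Slc6a5, with 502, 526 and 562 CPM in the WT cords and 561, 577 and 587 CPM in the ETAQ+/- cords. Its log2 fold change there was 0.12 ± 0.04 (adjusted p = 0.305, edgeR), against 0.01 ± 0.04 in mice 7 to 12. In mice 7 to 12 it was Slc6a9, with 328, 329 and 339 CPM in the WT cords and 298, 311 and 319 CPM in the ETAQ+/- cords. Its log2 fold change there was -0.10 ± 0.04 (adjusted p = 0.373, edgeR), against -0.04 ± 0.04 in mice 1 to 6. Glra4 had opposite signs in the sets, at -0.33 ± 0.29 in mice 1 to 6 and 0.30 ± 0.27 in mice 7 to 12, and Glra2 had 0.01 ± 0.07 and 0.13 ± 0.07; neither was called in either set. The difference of the genotype effect between the sets was called for 0 of the 9 genes and 0% of all genes by edgeR, with 0 of the 9 and 750 of all genes at an unadjusted p below 0.05; DESeq2 called 8 genes. Neither did any of the 9 pass within females (0.739% of all genes called) or within males (0.669%), where Slc6a5 had an unadjusted p below 0.05 (0.12 ± 0.05, adjusted p = 0.459, edgeR) as did 1487 of all genes. Of the tests of the difference between sexes, Glrb gave the smallest p of the 9. Its difference in log2 fold change was -0.20 ± 0.08 (females minus males, adjusted p = 0.901, edgeR), from -0.08 in females and 0.12 in males. All 3 WT females were in mice 7 to 12 and all 3 WT males in mice 1 to 6. The ETAQ+/- mice of each sex fell in both sets. Genotype within a sex was thus unbalanced over the sets, and these within-sex values cannot be told apart from the set differences given below.

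**Figure D3:**
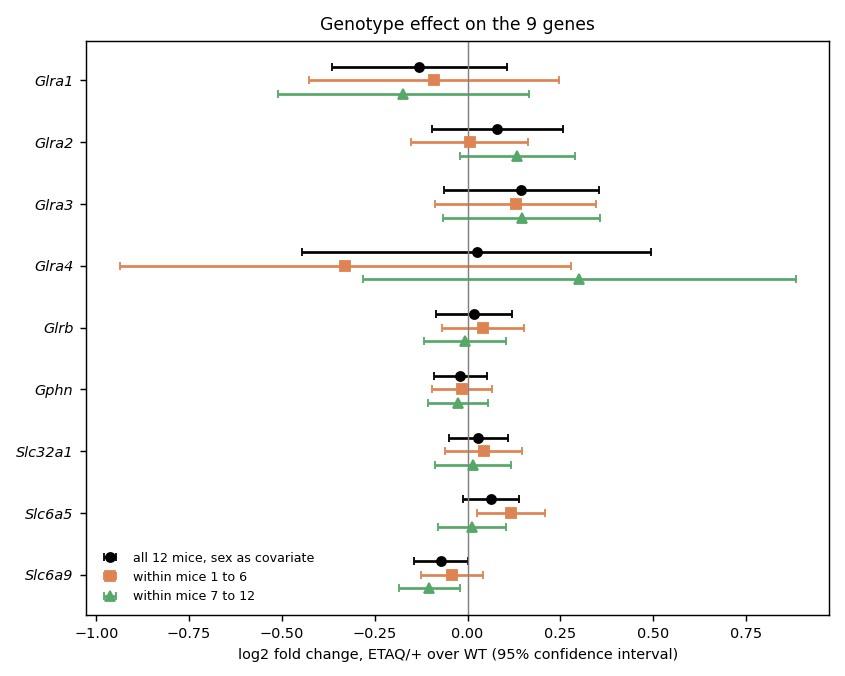
Log2 fold change of ETAQ+/- over WT with 95% confidence intervals for the 9 genes, in all 12 mice (black circles), within mice 1 to 6 (orange squares) and within mice 7 to 12 (green triangles). All black intervals cross 0, and the interval of Slc6a5 in mice 1 to 6 and that of Slc6a9 in mice 7 to 12 do not.

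The genes around these 9 were read from lists. None of 15 partners of gephyrin and the inhibitory postsynaptic density passed the genotype test, and their median log2 fold change was -0.01; the smallest p belonged to Dynll2, a dynein light chain that binds gephyrin (-0.09 ± 0.04, adjusted p = 0.369). None of 7 genes of the molybdenum cofactor pathway, in which gephyrin also acts, passed; Aox1, a molybdenum-dependent oxidase, had the smallest p (-0.13, adjusted p = 0.674). On the GABA side, 0 of 6 genes of GABA synthesis and uptake and 0 of 10 GABA-A receptor subunits were called, with medians of -0.03 and 0.0030. Among the receptor subunits the smallest p was that of Gabrg3 (0.13, adjusted p = 0.426). Gad1, which makes GABA, had a log2 fold change of 0.02 ± 0.06 (adjusted p = 0.962). Among 9 genes of chloride transport, which sets the direction of the glycine current, 0 were called, and Slc12a5, the neuronal chloride extruder, had 0.05 ± 0.04 (adjusted p = 0.713); the smallest p was that of the kinase gene Stk39 (-0.06, adjusted p = 0.413).

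Genes that bind or move glycine elsewhere gave 2 calls, both lower in ETAQ+/- cords. Grin3b, an NMDA receptor subunit that binds glycine and is prominent in motor neurons, fell. It had 6.07 to 7.23 CPM in WT (mean 6.67 ± 0.487) and 4.40 to 5.18 in ETAQ+/- cords (mean 4.73 ± 0.324), so the groups did not overlap. Its log2 fold change was -0.49 ± 0.07 (adjusted p = 0.00151, edgeR), with -0.40 ± 0.10 within mice 1 to 6 (adjusted p = 0.0943) and -0.59 ± 0.10 within mice 7 to 12 (adjusted p = 0.00710). The other NMDA subunits that bind glycine did not pass: Grin1 had 0.0068 and Grin3a -0.0010 on the log2 scale. Grin3b shares 32.1% of its exon bases with Tmem259 on the opposite strand, whose log2 fold change was -0.01 ± 0.03 (adjusted p = 0.936). As counted, Tmem259 was far higher, at 62.6 to 71.0 CPM against 4.40 to 7.23 for Grin3b. If counting was not by strand, reads from the shared bases could not be told apart. The Grin3b values are uncertain to that extent. Motor neuron markers fell in the same cords, 5 of 11 tested, with Chodl at -1.84 ± 0.07, Prph at -0.84 ± 0.05 and Slc10a4 at -0.86 ± 0.06. The 11 markers summed to 496 to 545 CPM in WT and 372 to 420 CPM in ETAQ+/- cords, without overlap, and their part in the Grin3b result was not tested. In bulk cord, fewer cells of a type and less RNA per cell cannot be told apart.

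Of 8 tested genes for other carriers that accept glycine, 1 was called: Slc7a10, which exchanges glycine and D-serine, at 83.7 ± 3.28 CPM in WT and 75.7 ± 3.23 CPM in ETAQ+/- cords. Its ranges, 79.1 to 86.2 and 72.4 to 80.4 CPM, overlapped, and the log2 fold change was -0.14 ± 0.03 (adjusted p = 0.0455, edgeR). Within the sets it was -0.10 ± 0.04 in mice 1 to 6 (adjusted p = 0.426) and -0.19 ± 0.04 in mice 7 to 12 (adjusted p = 0.0379). The call was lost with any 1 of 10 mice left out (all but mice 2 and 5, adjusted p up to 0.132) and under limma-voom (adjusted p = 0.0578). Of its exon bases, 17.9% are shared with Lrp3 on the opposite strand, at 0.11 ± 0.03 (adjusted p = 0.179). Lrp3 had 61.7 to 77.8 CPM, a level near that of Slc7a10, and the same uncertainty applies. In glycine synthesis and cleavage 0 of 6 genes were called; Shmt2, the mitochondrial enzyme that makes glycine from serine, came nearest at 19.4 ± 1.52 against 21.9 ± 0.887 CPM (0.18 ± 0.04, adjusted p = 0.0533, and 0.0240 with DESeq2). For scale, 9 of 12 ATF4 target genes were higher in ETAQ+/- cords, with Slc7a1 at 0.55 ± 0.04 and Slc7a3 at 0.82 ± 0.07 on the log2 scale. These are carriers of cationic amino acids. Fgf21 was at 0.0314 ± 0.0339 CPM in WT, below the level of 3 counts per library (0.0730 to 0.129 CPM), and at 7.25 ± 0.806 CPM in ETAQ+/- cords.

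**Figure D4:**
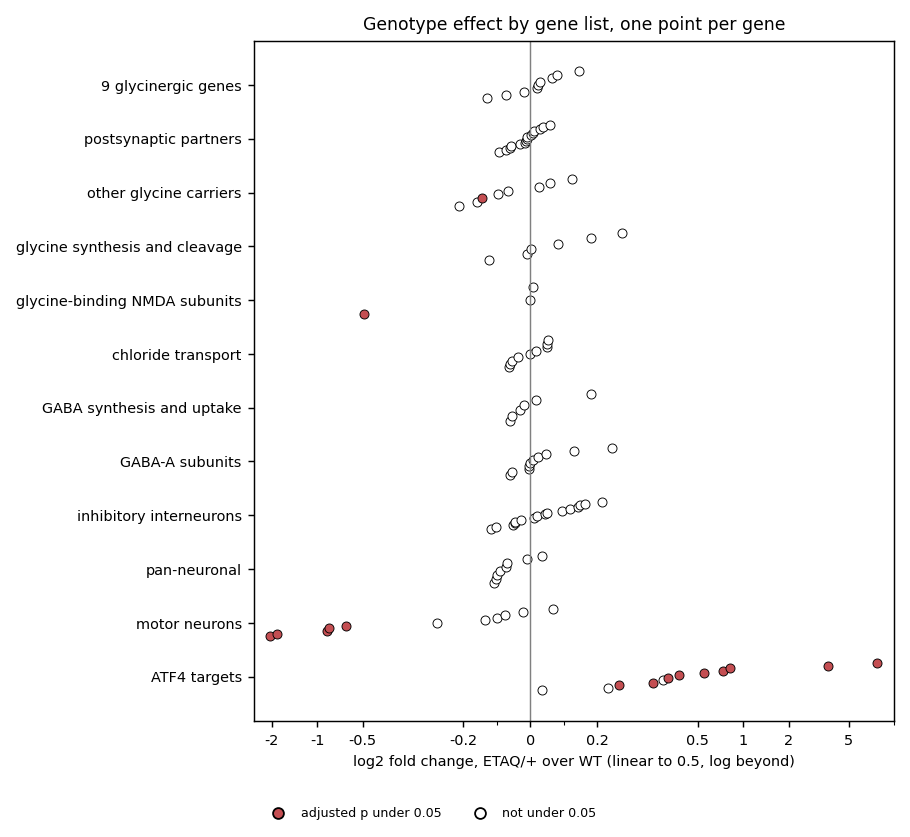
Log2 fold change of ETAQ+/- over WT (axis linear to 0.5 and logarithmic beyond) for each tested gene of the 9 glycinergic genes and 11 gene lists, filled red where the adjusted p was under 0.05. The 9 glycinergic genes and the postsynaptic, GABA and chloride lists lie near 0 with no filled point, while 5 motor neuron markers lie to the left and 9 ATF4 targets to the right.

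Markers of the cells that carry these genes were set beside them. None of 16 markers of inhibitory interneurons, the cells that release glycine, was called (smallest adjusted p 0.463, for Lhx1), with a median log2 fold change of 0.03 and summed levels of 155 to 179 CPM in WT and 154 to 179.6 CPM in ETAQ+/- cords. Of 9 astrocyte markers 1 was called higher: Slc1a3, a glutamate transporter, at 133 ± 5.02 CPM in WT and 151 ± 7.96 CPM in ETAQ+/- cords (0.19 ± 0.04, adjusted p = 0.0141), with no overlap between the groups. The astrocyte sum overlapped, at 7246 to 7692 CPM against 7141 to 8387 CPM. None of 8 pan-neuronal, 6 oligodendrocyte or 5 microglial markers was called; the smallest p values belonged to Snap25 (-0.11, adjusted p = 0.0836), Mog (0.13, adjusted p = 0.227) and Cx3cr1 (0.21, adjusted p = 0.342). The 8 pan-neuronal markers summed to 5668 to 5957 CPM in WT and 5310 to 5682 CPM in ETAQ+/- cords, and 7 of the 8 were below 0 in log2 fold change. In the red cell, muscle and marrow lists, none of whose genes was called, the smallest p values belonged to Hba-a2 (1.26 ± 0.99), Myh4 (-1.16 ± 2.30) and Elane (1.13 ± 1.18).

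The larger differences in the glycinergic genes were between the 2 sets of mice. With genotype as covariate, 5 of the 9 genes were called between mice 1 to 6 and mice 7 to 12, 1 higher and 4 lower in mice 1 to 6, in a contrast where 20.6% of all genes were called, 10.9% higher and 9.66% lower. Glra2 was lower in mice 1 to 6, at 11.3 to 12.6 CPM (median 11.8) against 12.9 to 15.5 CPM (median 14.5) in mice 7 to 12, without overlap. Its log2 difference, mice 1 to 6 over mice 7 to 12, was -0.28 ± 0.05 (adjusted p = 0.00152, edgeR). Glra3 was lower too, at 5.92 to 8.13 CPM against 8.69 to 9.99 CPM, again without overlap, with -0.37 ± 0.07 (adjusted p = 0.00138). The share of all genes whose sets did not overlap was not counted. The lack of overlap is thus no result about Glra2 and Glra3. Smaller differences were called for Glrb (-0.12 ± 0.04, adjusted p = 0.0312) and Gphn (-0.08 ± 0.03, adjusted p = 0.0396), both lower, and for Slc6a9 (0.09 ± 0.03, adjusted p = 0.0320), which was higher. Glra1 (0.14 ± 0.10), Glra4 (-0.28 ± 0.21), Slc6a5 (-0.08 ± 0.03) and Slc32a1 (-0.07 ± 0.03) were not called.

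Only Glra2 and Glra3 were called with each of the 12 mice left out in turn. The number of the 9 genes called fell to 2 without mouse 1, 6, 7, 8 or 12, to 3 without mouse 2, 4, 10 or 11, and to 4 without mouse 3, 5 or 9. With sex added as a covariate 3 genes were called, Glra2, Glra3 and Glrb, while Gphn (adjusted p = 0.103) and Slc6a9 (adjusted p = 0.179) were not. Named after their values were seen, these genes of inhibitory neurons were also lower in mice 1 to 6: Gad1 by -0.24 (adjusted p = 3.36e-05), Gad2 by -0.36 (adjusted p = 3.05e-05) and Pax2, a transcription factor of inhibitory interneurons, by -0.22 (adjusted p = 0.00268). Of the 10 GABA-A subunits 5 were lower and 0 higher, and of 16 inhibitory interneuron markers 4 were called lower and 0 higher, with 4 of the 16 above 0 in log2 difference. Of 8 pan-neuronal markers 3 were called lower and 0 higher, and 7 of 8 were below 0. Other lists went both ways. Of the 6 genes of GABA synthesis and uptake, which include Gad1 and Gad2, 2 were called lower and 1 higher. Calls were 4 lower and 3 higher in the postsynaptic partners, and 1 lower and 3 higher in chloride transport. Motor neuron markers had 1 lower and 2 higher, and astrocyte markers 1 lower and 3 higher. The interneuron markers summed to 154 to 158 CPM in mice 1 to 6 and 169 to 179.6 CPM in mice 7 to 12. Red cell, muscle and marrow markers and the 3 Schwann cell markers (173 to 463 against 2.58 to 8.76 CPM) moved the opposite way, and their part in these differences was not tested.

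**Figure D5:**
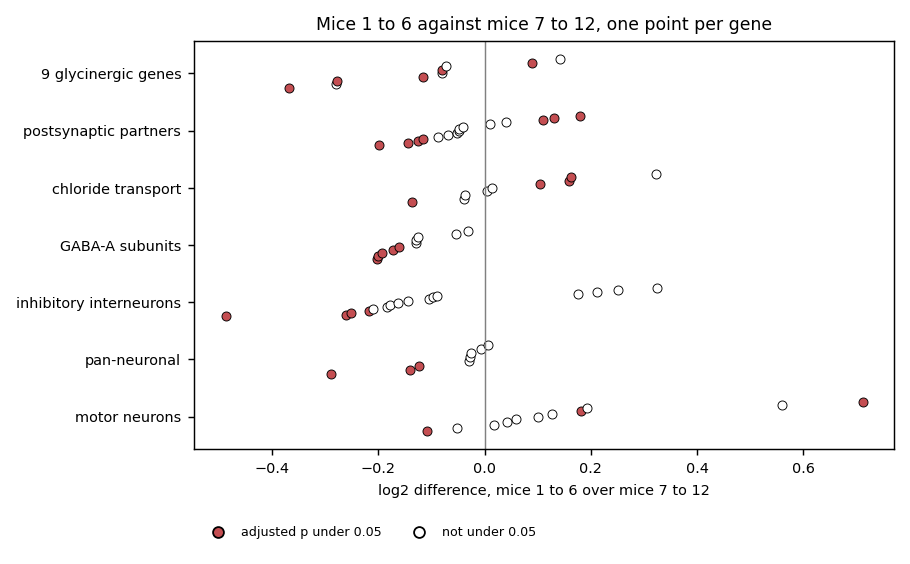
Log2 difference of mice 1 to 6 over mice 7 to 12 for each tested gene of the 9 glycinergic genes and 6 gene lists, filled red where the adjusted p was under 0.05. Of the glycinergic genes, 4 filled points lie left of 0 and 1 lies right of it, and all 10 GABA-A subunits lie left of 0.

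The genes whose levels ran most closely with Glra1 and with Slc6a5 were ranked by the lower of the Pearson correlations of log2 CPM within mice 1 to 6 and within mice 7 to 12 (6 mice each), among 11960 genes. For Glra1 they were Kcna2, a voltage-gated potassium channel (r = 0.926 and 0.905), Ubxn2a (0.903 and 0.933) and Dst, a cytoskeletal linker (0.885 and 0.911). Kcna2 and Dst were, like Glra1, highest in WT mouse 3, at 116 and 807 CPM. For Slc6a5 they were Acacb, an acetyl-CoA carboxylase (0.853 and 0.849), Slc36a4, an amino acid carrier (0.848 and 0.933), and Mcph1 (0.846 and 0.847). None of these 6 genes differed between genotypes by the test (adjusted p from 0.308 to 0.934). The correlations rest on 6 mice in each set and on a ranking over many genes, and are a description only.

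The deposited mean transcript length, which weights each gene's transcripts by their estimated abundance, varied for the genes with several transcripts. Slc6a9, with 12 transcripts, ranged from 2457 to 2649 bases, and Glrb, with 4, from 2645 to 2910 bases. Glra1, with 3 transcripts, was 2286.3 to 2320 bases in mice 1 to 6 and 2269 to 2285.7 bases in mice 7 to 12, narrowly without overlap. The share of all genes whose lengths did not overlap between the sets was not counted, so this is a description only. Mouse 5 had the longest value for Slc6a9, Glrb and Glra1. The genotypes overlapped in each, and Slc6a5, whose 2 transcripts gave a constant 7065 bases, and the single-transcript genes Glra2 and Slc32a1 carried no such information.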

How the data were processed

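Whole spinal cord polyA RNA from 12 mice was sequenced as 75 bp paired-end reads, per the labels' protocols, which name 2 stranded library kits without saying which library had which. Per the submitters' processing notes, Bowtie2 2.2.0 and RSEM 1.2.12 were used; no genome build, annotation or strand setting is stated in them. Per the file headers, the deposited tables hold an expected count, a TPM and an FPKM value per gene and mouse, with transcript lengths. The deposited expected counts were rounded and tested with edgeR 4.0.16 (R 4.3.3): TMM scaling, filterByExpr on the 4 genotype-by-sex groups, robust quasi-likelihood fit with sex as covariate, Benjamini-Hochberg adjustment over all genes tested, threshold 0.05. Levels between genes and ratios used the deposited TPM; the deposited FPKM values gave the same ratios to rounding and were not used further. Confidence intervals are at 95% and rest on the spread between mice. DESeq2 1.42.0, limma-voom (limma 3.58.1), other scalings, filters and covariates, limma on log2(TPM + 0.1), each set alone and leaving out each mouse were alternatives. The fits were tested on simulated counts. Gene positions and shared exons are from GENCODE M21 (GRCm38). Named genes are the 9 genes, up to 3 called genes with the smallest p in each list or else the gene with the smallest p, and the 3 genes most like Glra1 and Slc6a5 (mean of at least 5 CPM); Grin1, Grin3a, Gad1, Gad2, Slc12a5, Pax2 and the opposite-strand neighbours were named after their values were seen. The values of 2 genes that this rule names are not reported here. The 9 genes and all lists were chosen with earlier results of these data known. Listed genes without a test were Slc18a3, Slc6a14 and 4 sensory ganglion markers; of that list's 4 tested genes 2 were higher in ETAQ+/- cords (P2rx3 by 2.87 and Avil by 2.35 on the log2 scale). Leaving out mice in the comparison of the 2 sets was chosen after seeing the data.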

Additional observations from a re-analysis of the deposited data

Results flagged for a closer look

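In WT mouse 3 the level of Glra1 was 146.6 CPM, with the next WT mouse at 112 CPM and the lowest at 98.2 CPM, a gap that takes up more of the group's range than Dixon's 95% limit for 6 samples allows. The same mouse had the lowest share of Glra2 among the alpha genes, 5.08% of their summed TPM against 6.77% in the next WT mouse, and the lowest ratio of Glrb to the summed alpha genes, 1.57 against 2.05. Both of these measures contain the TPM of Glra1, so the 3 values are not separate observations. They were 3 of 54 groups examined, and chance alone gives about 1 in 20.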

How the results depend on the processing

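None of the 9 glycinergic genes was called between genotypes under any alternative run or with any mouse left out. The sign of 3 of them changed under some settings. Glra4 went to -0.0212 under limma-voom, -0.000514 with set in place of sex, -0.0110 with set and sex and -0.33 in mice 1 to 6 only, was 0.30 in mice 7 to 12 only, and ranged from -0.10 to 0.12 with 1 mouse left out. Gphn went to 0.00504 with library totals only and 0.0222 with limma on log2(TPM + 0.1), and ranged from -0.0317 to 0.00745 with 1 mouse left out. Glrb went to -0.00564 in mice 7 to 12 only and ranged from -0.00526 to 0.0541 with 1 mouse left out. Between genotypes over all genes, 162 genes were called higher with DESeq2, 163 with set in place of sex, 151 with set and sex, 56 in mice 7 to 12 only and 60 in mice 1 to 6 only, against 100; 87 were called lower with limma on TPM, 151 in mice 7 to 12 only and 98 in mice 1 to 6 only, against 230. With 1 mouse left out, 75 to 98 genes were called higher and 164 to 218 lower. DESeq2 called 121 higher and 185 lower within mice 1 to 6 (edgeR 65 and 119), 65 and 163 within females (34 and 93), 94 and 147 within males (39 and 76), and 5 and 3 for the difference between the sets (0 and 0). Between the sets, adding sex gave 848 higher and 508 lower genes (1873 and 1660 without it) and 3 of the 9 genes, and leaving out 1 mouse gave 2 to 4 of the 9. The call of Grin3b was lost in mice 1 to 6 only (adjusted p = 0.183), and that of Slc1a3 in mice 1 to 6 only (0.164) and mice 7 to 12 only (0.0969). That of Slc7a10 was also lost with library totals only (0.132), without a covariate (0.0548), with limma on TPM (0.699) and in mice 1 to 6 only (0.584). Shmt2 was called with DESeq2 and with 3 of the other settings, and without mouse 4 or 11. The causes of these shifts were not tested. No paired analysis was possible because each mouse number belongs to 1 mouse and the genotypes share none. Glra4, at 14 to 27 counts per library, is limited by depth.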
